A study of Saccharomyces cerevisiae with 4 samples.

Results

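Genes of sterol and sphingolipid metabolism of the budding yeast Saccharomyces cerevisiae were followed in a comparison of RNA bound to the export receptor Mex67 with total RNA. The set was chosen by gene name and holds 44 of the 5539 genes with a probe on the array: 25 genes of the mevalonate and ergosterol pathway and 19 genes of sphingolipid synthesis and breakdown. RNA recovered by immunoprecipitation of a tagged Mex67, zzMex67, was hybridised against total RNA on 4 two-colour arrays, with the precipitated RNA in channel 2 of arrays 1 and 2, and channel 1 of arrays 3 and 4. All 4 arrays form 1 group, numbered in accession order. Their titles carry 2 codes of unstated meaning, with arrays 1 and 3 sharing a code and arrays 2 and 4 the other. The labels give no strain, growth condition or treatment, nor do they tell separate cultures from repeat hybridisations. The p-values therefore cover array-to-array spread alone, and that spread may be technical. No mock or untagged precipitation was analysed here, so RNA recovered without Mex67 was not measured.

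Ergosterol is the main sterol of yeast membranes. It is built from acetyl-CoA through mevalonate, farnesyl diphosphate and squalene, and the later enzymes act on the sterol rings in the endoplasmic reticulum. Sphingolipids start with the joining of serine and a fatty acyl-CoA. The resulting long-chain bases are turned into ceramides and then into inositol-containing lipids of the plasma membrane, or are phosphorylated and cleaved. Mex67 carries mRNA through the nuclear pores, so the ratio of precipitated to total RNA asks how far each transcript was represented in the Mex67-bound fraction relative to its share of total RNA.

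Unless another centring is named, every value below is a log2 ratio minus the median of its array. That median was taken over the 498 named genes with a ratio on at least 3 arrays. A value of 1 is thus a ratio 2-fold above that median. Which RNA is on top of the ratio is not stated, and the wording of the labels makes precipitated over total RNA the likely direction. If the ratios are total over precipitated RNA, every direction given here turns. Means were tested against 0 with limma's moderated test over 596 features (those 498 genes and 98 unnamed probes, which were not averaged), with Benjamini-Hochberg adjustment over all of them.

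Ratios were sparse. Of 12800 probes, 6.60% to 19.3% had a ratio on an array. Arrays 2, 3 and 4 correlated with each other over the tested features at r = 0.78 to 0.89, whereas array 1 correlated with them at r = 0.06 to 0.25 over 90 to 108 features, as a description of the arrays. The medians removed differed widely, at log2 -1.71, 1.74, -3.71 and -1.61 on arrays 1 to 4. On array 1 the median rested on 100 genes, and over all probes measured there the median was lower, at -3.19.

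Of the 44 genes, 15 (34.1%) had a ratio on at least 1 array, against 31.6% of all genes, and 5 (11.4%) had one on at least 3 arrays and were tested, against 8.99% of all genes. Those tested were ERG13, HMG1, ERG12 and ERG4 of the sterol pathway and YSR3 of sphingolipid metabolism. Another 10 had ratios on 1 or 2 arrays and are described apart, outside that test. The other 29 had no ratio on any array, 16 of them sterol genes and 13 sphingolipid genes. Array 1 gave a ratio for 5 of the 44 genes, array 2 for 12, array 3 for 6 and array 4 for 7.

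**Figure D1:**
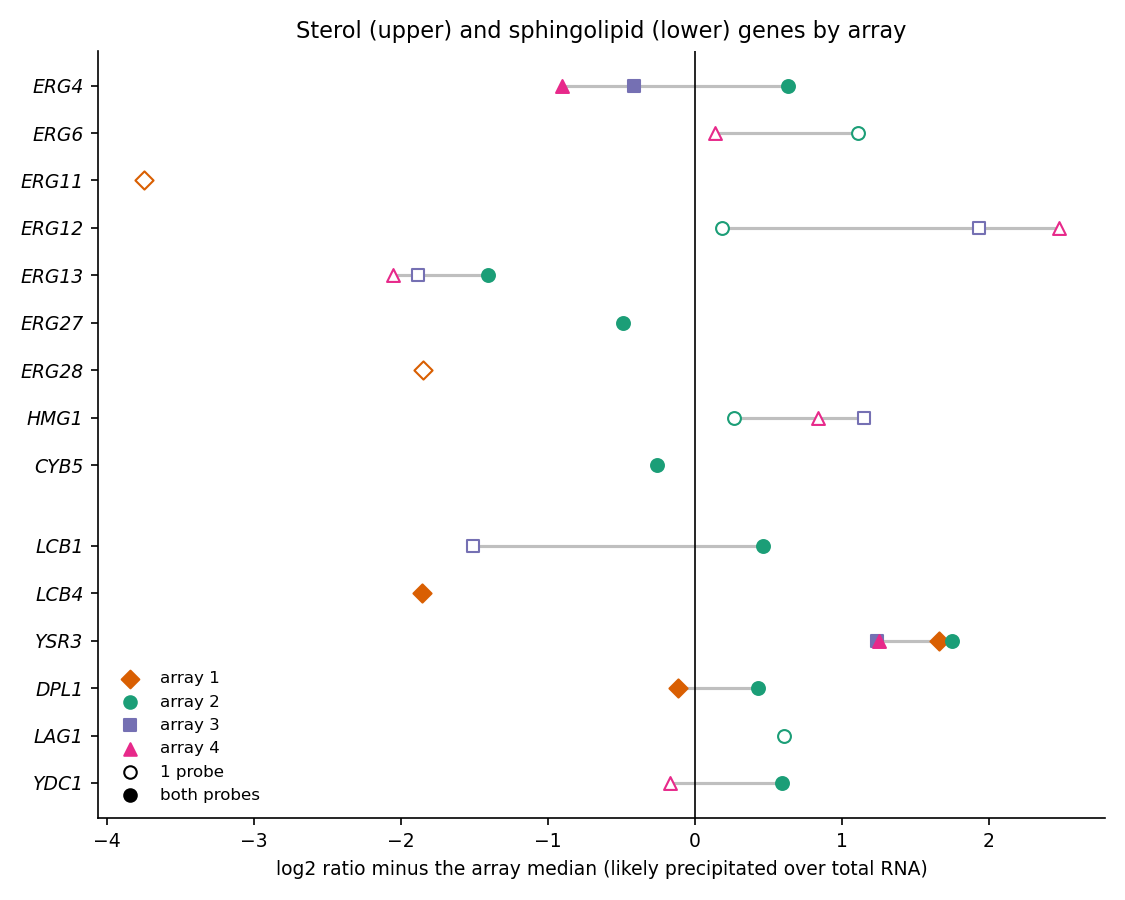
Log2 ratio minus the array median (horizontal axis, likely precipitated over total RNA) for the 15 sterol and sphingolipid genes with a ratio, by array (colour and shape); open symbols rest on 1 probe, filled symbols on both, and grey lines span the arrays. YSR3 lies between 1.24 and 1.75 on all 4 arrays, ERG13 between -2.05 and -1.41 on 3, and the values of ERG4 and LCB1 fall on both sides of 0.

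Of the 5 tested genes, the long-chain base phosphatase gene YSR3 lay above the array median and the HMG-CoA synthase gene ERG13 below it, while HMG1, ERG12 and ERG4 did not pass. The count above, 1 of 5, stands beside 22.5% of all tested features called above (134 of 596), and the count below, 1 of 5, beside 25.2% called below (150 of 596). The median of the 5 means was 0.75, against -0.0047 over all tested features, whose means had quartiles of -0.99 and 0.90. In either direction, 2 of the 5 genes were called beside 47.7% of all tested features. Those features include the 98 unnamed single probes. In a fit on the 498 named genes alone, 207 were called, 101 above and 106 below, with the same 2 genes of the set among them.

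Of the 4 sterol genes tested, ERG13, HMG1 and ERG12 act one after the other on the way to phosphomevalonate. ERG13 (YML126C) encodes HMG-CoA synthase, which makes HMG-CoA from acetoacetyl-CoA and acetyl-CoA. Its values on arrays 2, 3 and 4 were -1.41, -1.89 and -2.05, with none on array 1. All 3 lay below the median, and the mean of -1.78 ± 0.34 (SD, n = 3) is 3.44-fold below it (limma, adjusted p = 0.00722). On each array it ranked low among all named genes with a ratio, with 15.4%, 12.2% and 9.66% of them lower on arrays 2 to 4.

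The probes of ERG13 did not give the same ratio. Both had one only on array 2, where the first probe stood at -0.07, next to the median, and the second at -2.75. This 6.42-fold gap was wider than that of 98.9% of the 724 genes with both probes measured on that array. Arrays 3 and 4 rest on the second probe alone. Taken by itself the second probe had a mean of -2.38 ± 0.44 (SD, n = 3; limma on single probes, adjusted p = 0.00577). That fit was centred on other array medians, those of single named probes with at least 3 ratios. The first probe of ERG13, with 1 ratio, could not be tested. Without array 4 the mean of ERG13 was -1.65 and the call ended (limma, adjusted p = 0.0577).

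HMG1 (YML075C) encodes the main HMG-CoA reductase, which makes mevalonate and is the regulated step of the pathway. On arrays 2, 3 and 4 it stood at 0.26, 1.15 and 0.84. All 3 values lay above the median, but the mean of 0.75 ± 0.45 (SD, n = 3), 1.68-fold above it, did not pass (limma, adjusted p = 0.0814). The value on array 3 came from the second probe and those on arrays 2 and 4 from the first, so that no array compares the probes. HMG2, the gene for the other HMG-CoA reductase, had no ratio. The lowest value of HMG1 lay above the highest of ERG13; this difference was not tested.

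ERG12 (YMR208W), the mevalonate kinase gene, stood at 0.19, 1.93 and 2.48 on arrays 2 to 4. The arrays with precipitated RNA in channel 1 were thus high and array 2 lay near the median. Array 2 minus the mean of arrays 3 and 4 was -2.02, and it was more negative in 1.24% of the 566 features with these 3 arrays. Whether the channel assignment had a part in it was not tested, since array 2 differs from arrays 3 and 4 in more than its channels. The mean of 1.53 ± 1.20 (SD, n = 3), 2.89-fold above the median, did not pass (limma, adjusted p = 0.0683). It passed without array 1 (adjusted p = 0.0414) although ERG12 has no value there, without array 2 (mean 2.20, adjusted p = 0.0245), and in the limma fits with a term for the channel assignment (adjusted p = 0.0423) or with the arrays of a title code averaged (adjusted p = 0.0261). Averaging the codes joined array 2 with array 4, and the channel term takes up the gap between array 2 and arrays 3 and 4. Neither of these fits thus counted the full gap as spread. All values of ERG12 came from 1 probe.

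ERG4 (YGL012W) encodes the sterol reductase of the last step to ergosterol. Its values on arrays 2 to 4 were 0.63, -0.42 and -0.90, on both sides of the median, with a mean of -0.23 ± 0.79 (SD, n = 3; limma, adjusted p = 0.639). Both probes had ratios on these 3 arrays and differed by 0.94, 0.81 and 1.54, and which probe was higher changed between arrays: the second on arrays 2 and 4, the first on array 3. On arrays 2 to 4 the first probe stood at 0.16, -0.01 and -1.68 and the second at 1.11, -0.82 and -0.13. In the fit on single probes, with its own array medians, the first had a mean of -0.66 ± 0.99 and the second of -0.10 ± 1.00 (SD, n = 3). The sign of the second mean thus depends on the centring.

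YSR3 (YKR053C) was the only gene of the set with a ratio on all 4 arrays, and so the only one with both channel assignments equally represented. It encodes a phosphatase that acts on phosphorylated long-chain bases. It stood at 1.66, 1.75, 1.24 and 1.25 on arrays 1 to 4. Every array lay above the median, and the mean of 1.47 ± 0.27 (SD, n = 4) is 2.78-fold above it (limma, adjusted p = 0.00473). An SD smaller than this was found in 25% of the tested features, whose median SD was 0.50.

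The probes of YSR3 gave like ratios. All 8 probe ratios lay above the median, between 1.01 and 1.96, and the probes of 1 array differed by 0.19 to 0.47. Each passed when tested apart, the first with a mean of 1.20 ± 0.33 and the second with 1.38 ± 0.30 (SD, n = 4; limma on single probes, adjusted p = 0.00773 and 0.00559). The fit on single probes has its own array medians, and on that scale both means lie below the gene mean of 1.47. Of all named genes with a ratio, 93.4%, 94.0%, 80.0% and 82.8% were lower than YSR3 on arrays 1 to 4. Among the named genes with ratios on at least 3 arrays, these shares were 83%, 87.7%, 77.7% and 79.4%. With 1 array left out the mean stayed between 1.38 and 1.55 (limma, adjusted p = 0.00484 to 0.0363). LCB3, the gene for the related phosphatase, had no ratio, so the pair could not be compared. Whether YSR3 transcripts and those of LCB3 can bind each other's probes was not tested.

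**Figure D2:**
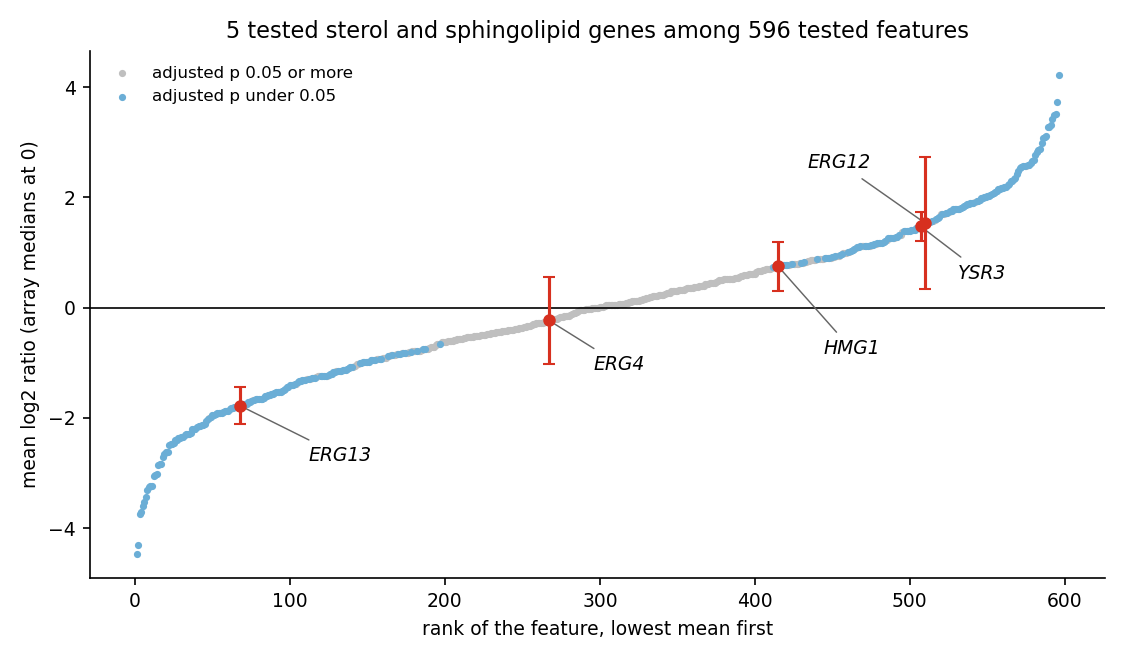
Mean log2 ratio of the 596 tested features in order of their means, with array medians at 0; blue points passed at an adjusted p under 0.05, and red points with bars are the 5 sterol and sphingolipid genes with the SD over their arrays. ERG12 and YSR3 have nearly the same mean, at 1.53 and 1.47, but bars of 1.20 and 0.27.

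The means of ERG12 and YSR3 ranked 87 and 90 from the highest of the 596, and YSR3, with the smaller spread, passed. ERG13 ranked 529, HMG1 182 and ERG4 330.

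The 10 genes measured on 1 or 2 arrays covered other steps. Among those on array 2, LAG1, for a subunit of ceramide synthase, stood at 0.61, and CYB5, for the cytochrome that donates electrons to sterol and fatty acid enzymes, at -0.26. ERG27, for a keto reductase of sterol demethylation, stood at -0.49. Each was measured on that array alone. None of these lay as far from the median as YSR3 or ERG13 did on array 2.

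ERG6, for the methyltransferase of the ergosterol pathway that adds a methyl group which cholesterol lacks, stood at 1.11 on array 2 and 0.14 on array 4. YDC1, for a ceramidase, stood at 0.60 and -0.17 on the same arrays. LCB1, for a subunit of serine palmitoyltransferase, which makes the first long-chain base, stood at 0.47 on array 2 and -1.51 on array 3. DPL1, for the lyase that cleaves phosphorylated long-chain bases, stood at -0.11 on array 1 and 0.43 on array 2. LCB1, YDC1 and DPL1 thus lay on opposite sides of the median on their arrays, and ERG6 lay above it on both. A limma fit that also took features with 2 ratios had its own array medians, over named genes with at least 2 ratios. Its means are thus not averages of the values above, and that of DPL1 lies above both of its values. The mean was 0.74 for ERG6, -0.46 for LCB1, 0.49 for DPL1 and 0.33 for YDC1. None of the 4 passed (limma, adjusted p = 0.264, 0.602, 0.368 and 0.568).

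For LCB1 the array 2 value hid a split between its probes, at 1.29 and -0.36, and the array 3 value came from the second, lower probe. For DPL1 the probes stood at 1.08 and -1.30 on array 1, a 5.22-fold gap wider than that of 96.1% of the genes with both probes there, and at 0.51 and 0.35 on array 2. Over the set, 15 of the 30 gene values rested on both probes and 15 on 1. Of the 15 with both, 4 had a gap wider than in 90% of all such genes on that array: ERG13 and LCB1 on array 2, DPL1 on array 1 and ERG4 on array 4.

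**Figure D3:**
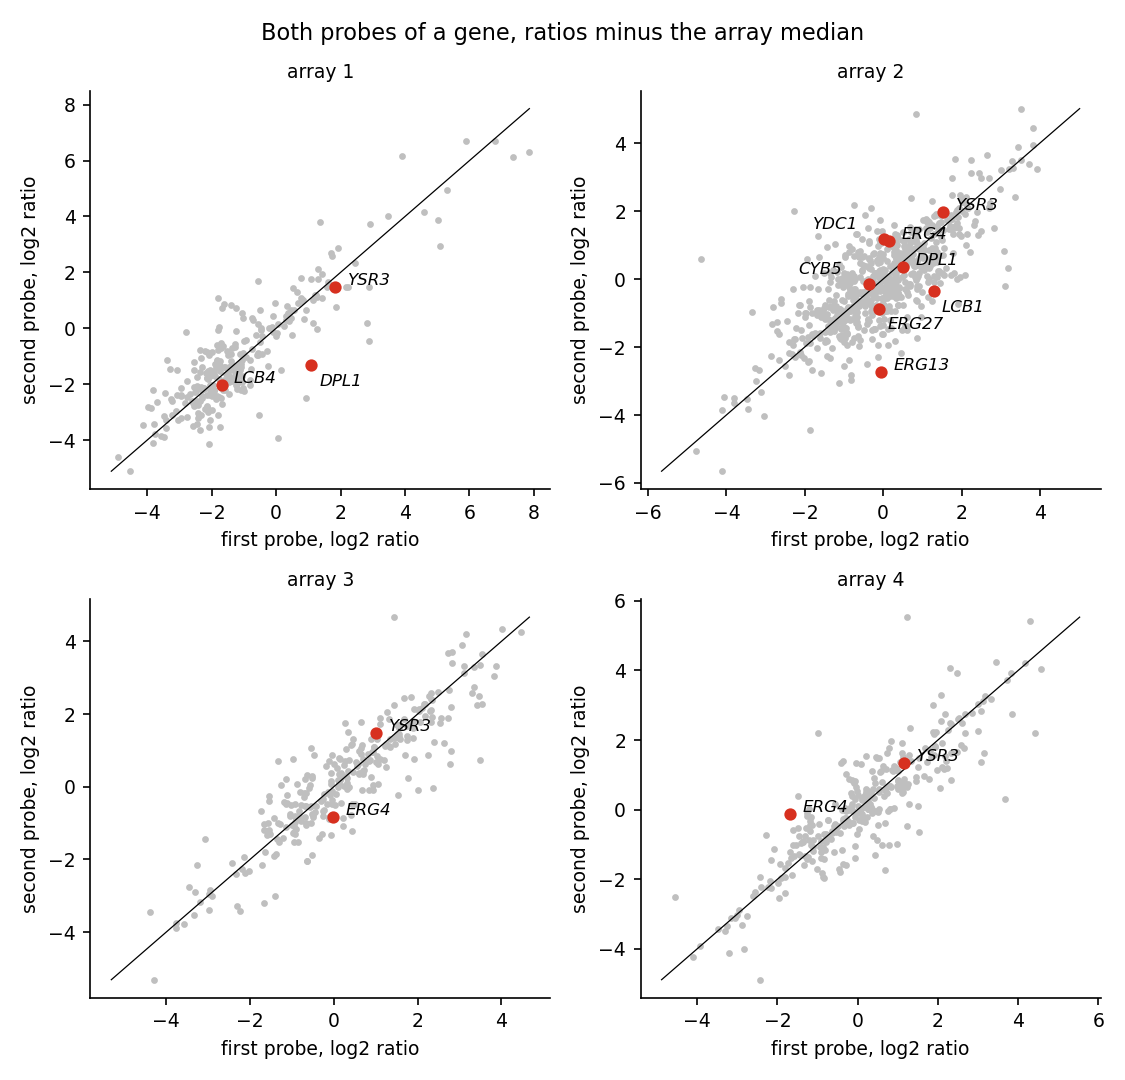
Ratio of the second probe against that of the first for every gene with both probes measured, by array, as log2 minus the array median; grey points are all genes, red points the sterol and sphingolipid genes, and the line marks equal ratios. YSR3 lies near the line on all 4 arrays, ERG13 lies 2.68 below it on array 2 and DPL1 2.38 below it on array 1.

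ERG11, ERG28 and LCB4 were measured on array 1 alone and lay below its median. ERG11, for the lanosterol demethylase that azole antifungals inhibit, stood at -3.75, ERG28, for a scaffold of the sterol demethylation enzymes, at -1.85 and LCB4, for the main long-chain base kinase, at -1.86. These depths depend on what array 1 is centred on. The 278 genes with a ratio on array 1 only had a median of -1.69, and against all 468 named genes of that array 38.7% were lower than ERG28, 38.2% lower than LCB4 and 3.21% lower than ERG11. ERG28 and LCB4 thus lay near the middle of the genes measured there, and ERG11 near the low end.

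The ratios on array 1 can be read back to whole numbers. Of its 845 ratios, 76.1% equal the log10 of a ratio of 2 whole numbers under 1000 within 1e-09, against 20.8%, 1.54% and 7.28% on arrays 2 to 4 and at most 0.243% when the values are read as natural logs. In lowest terms ERG11 was 19 over 839, ERG28 was 11 over 130, and the probes of LCB4 were 5 over 53 and 23 over 306. The probes of YSR3 on array 1 were 12 over 11 and 209 over 246, and the second probe of DPL1 was 10 over 81. Elsewhere the second probe of ERG13 on array 2, at 60 over 121, was the only such ratio among the 37 probe ratios of the set on arrays 2 to 4. What the whole numbers count is not stated, and a shared factor may have cancelled.

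Position in the order of probe numbers went with which genes had a ratio. In blocks of 400 consecutive probes the share with a ratio on array 2 ran between 1.25% and 80.2%. The block with the highest share held ERG13, ERG4, ERG6 and LCB1, so that 4 of the 15 measured genes lie within it. The median of that block, relative to the array median, was -0.08, -0.84 and -0.75 on arrays 2, 3 and 4. On array 1 the block of ERG28 and LCB4 had ratios for 35.5% of its probes, against a median of 1.38% over the 32 blocks, and its median was -1.82, next to the values of both genes.

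Ratios were therefore also centred within blocks. ERG13 then had a mean of -1.22 ± 0.16 (SD, n = 3) and YSR3 of 2.04 ± 0.79 (SD, n = 4), and both still passed (limma, adjusted p = 0.0214 and 0.0104). The block of YSR3 held only 8 ratios on array 1, where the median of all probes was used in its place. That put YSR3 at 3.13 on array 1, against 2.07, 1.31 and 1.65 on arrays 2 to 4. The median of those 8 ratios, 2 of them from YSR3 itself, was 1.46 relative to the array median. It lay next to the value of YSR3 there, 1.66, so the higher mean rests on the substitute median. The pass of YSR3 in this fit includes that value. Whether YSR3 would pass with the median of its own block on array 1 was not tested. ERG12 had 1.17 ± 1.01 and HMG1 0.45 ± 0.14, and ERG4 moved above the median, at 0.33 ± 0.44 (SD, n = 3). None of these 3 passed (limma, adjusted p = 0.107, 0.193 and 0.408).

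**Figure D4:**
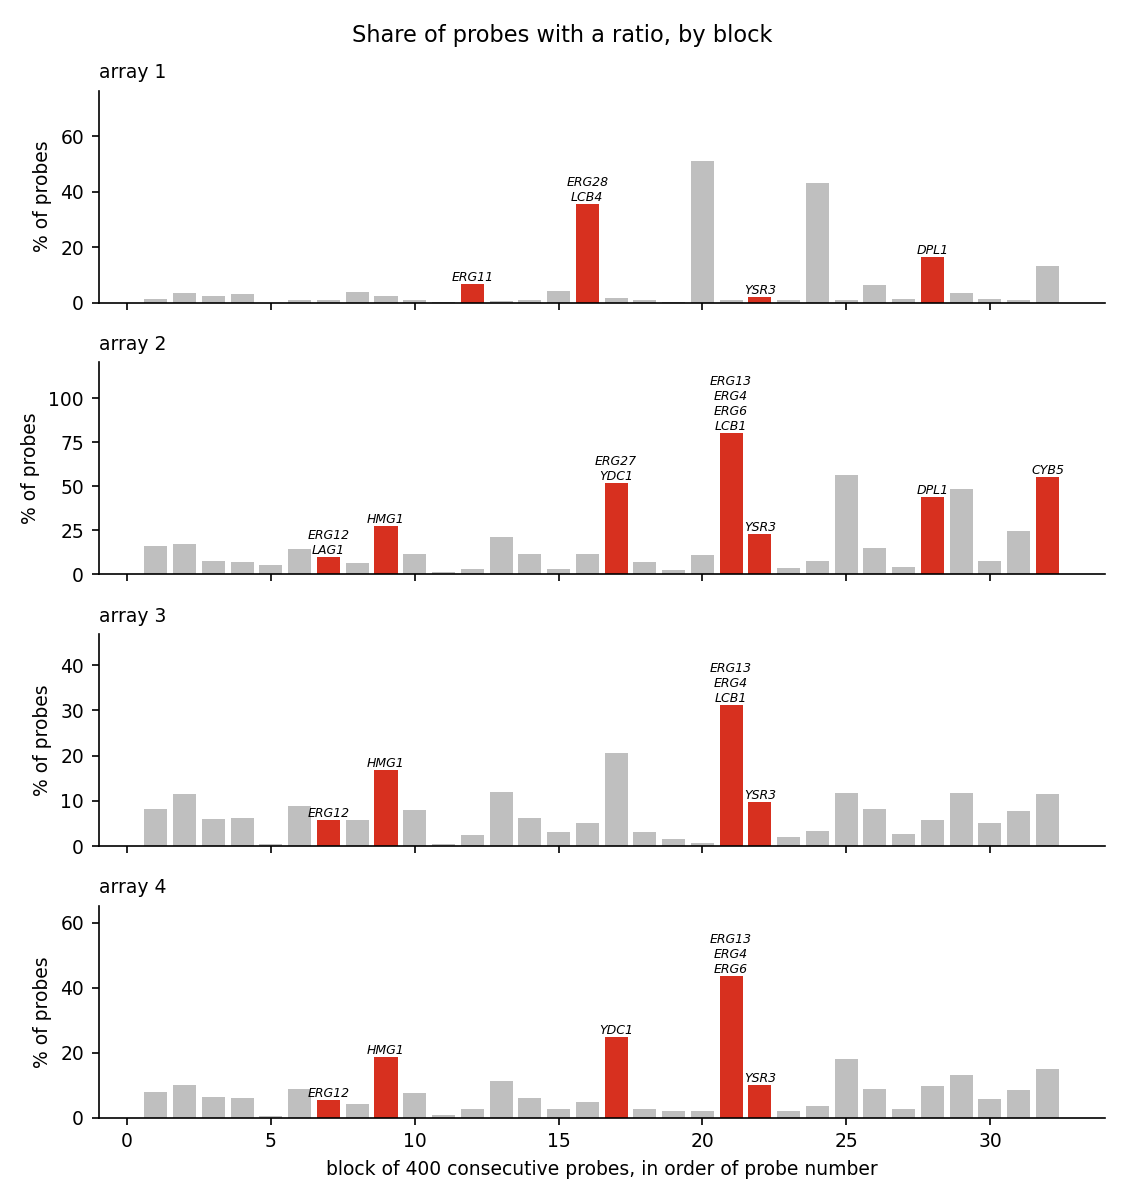
Share of probes with a ratio in each of 32 blocks of 400 consecutive probes, by array; red bars are blocks that hold a sterol or sphingolipid gene with a ratio on that array, named above the bar. The block of ERG13, ERG4, ERG6 and LCB1 reaches 80.2% on array 2.

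The genes without a ratio included most of the sterol pathway. They were ERG10 and HMG2 at its start, ERG8, MVD1, IDI1 and ERG20 on the way to farnesyl diphosphate, ERG9, ERG1 and ERG7, which make squalene, its epoxide and lanosterol, and ERG24, ERG25, ERG26, ERG2, ERG3 and ERG5 of the later steps, with the reductase gene NCP1. Among sphingolipid genes they were LCB2, LCB3, LCB5, LAC1, YPC1, SUR2, SCS7, ELO1, AUR1, SUR1, CSG2, IPT1 and ISC1. For the pairs of genes with like roles, 1 gene at most had a ratio: HMG1 but not HMG2, YSR3 but not LCB3, LCB4 but not LCB5, LAG1 but not LAC1, and YDC1 but not YPC1. The rule by which the authors left out ratios is not given in the sources used here, so a missing ratio says nothing about the transcript.

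Of 116 genes with a probe in 5 lists of other lipid genes, 33 (28.4%) had a ratio and 8 (6.90%) were tested, against 31.6% and 8.99% of all genes. Of the 8, 1 was called above and 1 below, and 6 missed the threshold, beside 22.5% of all tested features called above and 25.2% below. In the sphingolipid regulation list, the protein kinase gene YPK2, with values of -1.70, -1.55 and -1.39 on arrays 2 to 4, lay below the median on each (mean -1.55 ± 0.16, SD, n = 3; limma, adjusted p = 0.00745). The call ended without array 4 (adjusted p = 0.0560). PKH1, a kinase upstream of it, had a mean of -0.20 ± 1.09 (SD, n = 4), and ORM2, a regulator of serine palmitoyltransferase, -0.86 ± 1.38 (SD, n = 3), and neither passed. Both means depended on single arrays: ORM2 had -1.57 without array 3 and -0.19 without array 4, and PKH1 -0.70 without array 1 and 0.16 without array 3. Centred within blocks both lay above the median, ORM2 at 0.20 and PKH1 at 0.76.

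In the fatty acid list ACB1, for the acyl-CoA binding protein, stood at 1.01, 1.84 and 1.37 on arrays 2 to 4, above the median on each (mean 1.41 ± 0.41, SD, n = 3; limma, adjusted p = 0.0152). Leaving out array 3 ended its call (adjusted p = 0.0686), and so did leaving out array 4 (adjusted p = 0.0867). FAS1, for a subunit of fatty acid synthase, stood at -2.21, 1.98 and -1.29 on arrays 1 to 3, and its mean of -0.51 ± 2.20 (SD, n = 3) did not pass. Its direction was not stable. Without array 2 its mean was -1.75 and it passed (limma, adjusted p = 0.0458), whereas the mean was 0.34 without array 1, 0.11 with the arrays of a title code averaged and 0.29 centred within blocks. Of sterol regulators, the transcription factor genes ECM22 and ROX1 had means of -0.57 ± 0.54 and 0.71 ± 0.19 (SD, n = 3). ECM22 did not pass (limma, adjusted p = 0.176), and ROX1 did not either (adjusted p = 0.0546), but passed without array 1 (adjusted p = 0.0322), centred on all probes with a ratio (adjusted p = 0.0338) and under quantile normalization (adjusted p = 0.0458). Centred within blocks ROX1 had 0.41 (limma, adjusted p = 0.256). OPI3, of phosphatidylcholine synthesis, lay at the median, with a mean of -0.04 ± 0.30 (SD, n = 4), and of the prenyl branch genes none of 13 was tested.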

How the data were processed

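The deposited table holds log10 ratios of the 2 channels for each probe. Its log base was taken from the numbers themselves, since 76.1% of those on array 1 equal the log10 of a ratio of 2 whole numbers under 1000. The authors' background correction, normalization and rule for missing ratios were not given in the sources used here. Probes (11138 of 12800 with 1 symbol, 0 with several, 1662 with none here) were named through GEO's platform annotation, and 11128 Entrez identifiers matched the gene table of the reference (R64). No sequences and no coordinates were used. The number of arrays limits the precision, and no signal over background was used.

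Ratios were converted to log2, repeated rows (2) and probes of the same gene were averaged within an array, and the median over named genes with ratios on at least 3 arrays was subtracted. Features with 3 ratios were tested against 0 by a two-sided moderated test (limma 3.58.1, lmFit then eBayes, R 4.3.3), at an adjusted p under 0.05 (statmod 1.5.0 for the random block). The fit was run on simulated independent arrays with the real missing values and planted shifts common to all arrays. Those arrays had no position effect, shared title code or poorly correlated array. The run thus checks the code and not the calls made here. Python 3.11.15, numpy 2.4.6, pandas 2.3.3 and matplotlib 3.10.9 did the rest. Every tested gene of the set was named with its values by array, genes with 1 or 2 ratios with those values, and every tested gene of the other lipid lists. Genes and lists were chosen with earlier results of these data known. The alternatives were other centrings (none, all features, all probes, blocks), quantile normalization, scaling, other limits on missing ratios, named genes only, probes apart, the title code (2 codes of unstated meaning, arrays 1 and 3 against 2 and 4) as a random block or averaged, a channel term, arrays 3 and 4 turned, a variance trend, a threshold of 0.01 and each array left out.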

Additional observations from a re-analysis of the deposited data

How the results depend on the processing

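All arrays form 1 group, so there was no second group to pair with it. Arrays 1 and 3 share a title code, as do arrays 2 and 4, with opposite channel assignments. These codes entered only the fits with the code averaged or as a block. The calls rest on centring and on reading all arrays the same way: without centring, and with arrays 3 and 4 turned against arrays 1 and 2, 0 features, 0 genes of the set and 0 other lipid genes passed in either direction with limma (52 and 1 features at an unadjusted p under 0.05). Uncentred, HMG1 had a mean of -0.45, YSR3 of 0.15 and ERG13 of -2.98. The deposited log10 ratios of YSR3 were -0.02, 1.05, -0.74 and -0.11 on arrays 1 to 4, so its place above holds relative to the array medians. With the arrays turned, ERG12 had -1.41, ERG13 0.84, ERG4 0.65, HMG1 -0.57 and YSR3 0.23. Of the set, 2 genes lay above when centred on all probes with a ratio (HMG1 joining, adjusted p = 0.0491), with the codes averaged or with a channel term (ERG12 joining). Centred within blocks, 96 features lay below and ERG4 had 0.33. Over features on all 4 arrays, 9 lay above and 7 below, with 0 genes of the set below and 0 other lipid genes called, since ERG13, YPK2 and ACB1 lack array 1. At an adjusted p under 0.01, 66 features lay above and 60 below, with 1 other lipid gene called. With 1 array left out, over features with 2 or more ratios left, counts ran between 45 and 168 features above, 41 and 174 below, 1 and 2 genes of the set above, 0 and 1 below and 0 and 3 other lipid genes, the lowest feature counts being those without array 4 (83 and 88 without array 3), and the mean of ERG4 between -0.66 and 0.11. YSR3 kept its call in 18 of 20 alternatives and ERG13 in 15 of 18. These alternatives reuse the same ratios and are not independent of each other. Those of ERG13 include leaving out array 1, where it has no value, and its second probe alone. Those of YSR3 include each probe apart and the block fit with the substitute median. The title code as a block (limma, correlation 0.07) changed no call of the set. With the arrays of a code averaged, YSR3 and ERG13 still passed, at higher values (limma, adjusted p = 0.0262 and 0.0184). How far ratios stand above background is not known here and limits every value.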
